A study of Mus musculus with 20 samples.

Results

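The libraries described here compared leukocytes picked out of mouse pancreatic tumours on magnetic beads with bulk tumour, both from hosts labelled IL33KO. They were chosen by their labels: 10 of the 20 libraries in the series, 5 of sorted leukocytes and 5 of bulk tumour, numbered 1 to 5 in each group. All 10 came from tumours 2 weeks after orthotopic injection of cultured KPC cells, a mouse pancreatic cancer line family, into the pancreas of IL33-/- mice of the C57BL/6 strain that received no treatment. The tumours had been dispersed into a suspension of single cells, and cells carrying CD45, the protein encoded by Ptprc, had been selected with beads. Polyadenylated RNA was sequenced with a stranded kit. The protocol text, which is the same for all 20 libraries, speaks of 5 hosts per genotype and of dispersal and bead selection. The labels give neither the age of the mice nor which KPC line was used, and they do not say whether a sorted and a bulk library came from the same tumour, or which of these steps bulk tumour went through. The p-values therefore rest on the scatter among libraries alone, and part of that scatter may be technical. The other 10 libraries, from wild type (WT) hosts, enter only where the host genotypes are compared.

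A pancreatic tumour is a mixture of cancer cells, fibroblasts that lay down collagen, vessels and a large number of infiltrating leukocytes, with macrophages and neutrophils usually prominent. Selection for CD45 keeps leukocytes of every kind. The contrast with bulk tumour shows which transcripts are enriched in the sorted libraries, and not which cells supply most of a transcript. IL-33 is a cytokine of the interleukin-1 family that is released by damaged barrier and stromal cells and is sensed through ST2, the product of Il1rl1, on group 2 innate lymphoid cells, regulatory T cells and mast cells.

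The count of Il33 itself did not separate the host genotypes. Over all 20 libraries it was 17.6 ± 4.73 CPM (mean ± SD, n = 5; CPM are counts scaled to a common library size) in sorted leukocytes of IL33KO hosts and 12.8 ± 5.48 in those of WT hosts, with ranges of 14.3 to 25.7 and 5.77 to 20.6. In bulk tumour it was 46.1 ± 7.19 CPM in IL33KO and 57.7 ± 5.17 in WT hosts, with ranges of 37.0 to 56.3 and 53.7 to 66.7. The sources used here do not say which part of the gene the deletion removes, and the injected cells are given no Il33 genotype, so these counts neither check nor contradict the labels.

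The 10 libraries held 51.3 to 81.0 M counts in genes (median 58.4), with 21780 to 23126 genes detected, and 3 counts corresponded to 0.0371 to 0.0585 CPM. The first principal component of log2 CPM carried 70.6% of the variance and parted the sorted libraries from the bulk ones. Some libraries stood apart within their group: bulk replicates 1 and 5 held skeletal muscle transcripts, sorted replicate 3 and bulk replicate 3 the most acinar transcripts of their groups, and bulk replicate 5 the most B cell transcripts among bulk libraries. CPM of single genes are scaled by TMM factors, which ran from 0.799 to 0.928 in sorted and from 1.12 to 1.22 in bulk libraries. Values in lists of 5 are in the order of replicates 1 to 5. Fold changes are sorted over bulk, as log2 ± standard error, with p-values of edgeR's quasi-likelihood test adjusted by Benjamini and Hochberg over all genes tested and a threshold of 0.05.

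Of 17231 genes with enough counts to test, 5482 were higher in sorted leukocytes and 5577 were higher in bulk tumour, which is 31.8% and 32.4% of the genes tested. With a difference of at least 4-fold required as well, 1707 genes (9.91%) were higher in sorted leukocytes and 1113 (6.46%) in bulk tumour. The median log2 fold change of all genes tested was 0.015, with quartiles at -0.683 and 0.664. Scaling by library size alone, without TMM factors, lowered that median by 0.449 to -0.434 and turned the split to 3217 higher and 8848 lower. Small differences therefore depend on the scaling. Without bulk replicates 1 and 5 the counts were 5348 and 5249, and without sorted replicate 3 and bulk replicate 3 they were 5392 and 5512.

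All 12 pan-leukocyte markers tested were higher in sorted leukocytes, with a median log2 fold change of 3.10, and in all 12 the groups did not overlap. Of all genes tested, 31.8% were higher in sorted leukocytes, and the share of all genes without overlap is not given here. Ptprc, which encodes the selected surface phosphatase CD45 (chromosome 1, 138062861 to 138175708, minus strand, GRCm38), measured 860, 872, 672, 868 and 681 CPM in the sorted libraries and 78, 73.2, 41.1, 83 and 115 in bulk tumour. Every sorted library lay above every bulk one, and the level was 10.1-fold higher (log2 3.34 ± 0.24, adjusted p = 7.57e-07). Because the beads selected on its product, this is a check of the sort. Cytip, a scaffold protein of leukocyte adhesion signalling, had the largest fold of the list, at 265, 308, 236, 245 and 218 against 14, 13.9, 14.3, 18.5 and 31.9 CPM (log2 3.78 ± 0.25, adjusted p = 4.85e-07). Coro1a, an actin regulator of leukocytes, stood 9.04-fold higher, Laptm5, a lysosomal membrane protein, 8.68-fold and Itgb2, the shared beta chain of the leukocyte integrins, 7.91-fold. In bulk RNA, a lower level can come from fewer cells of a type or from less RNA per cell, and these cannot be told apart.

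**Figure D1:**
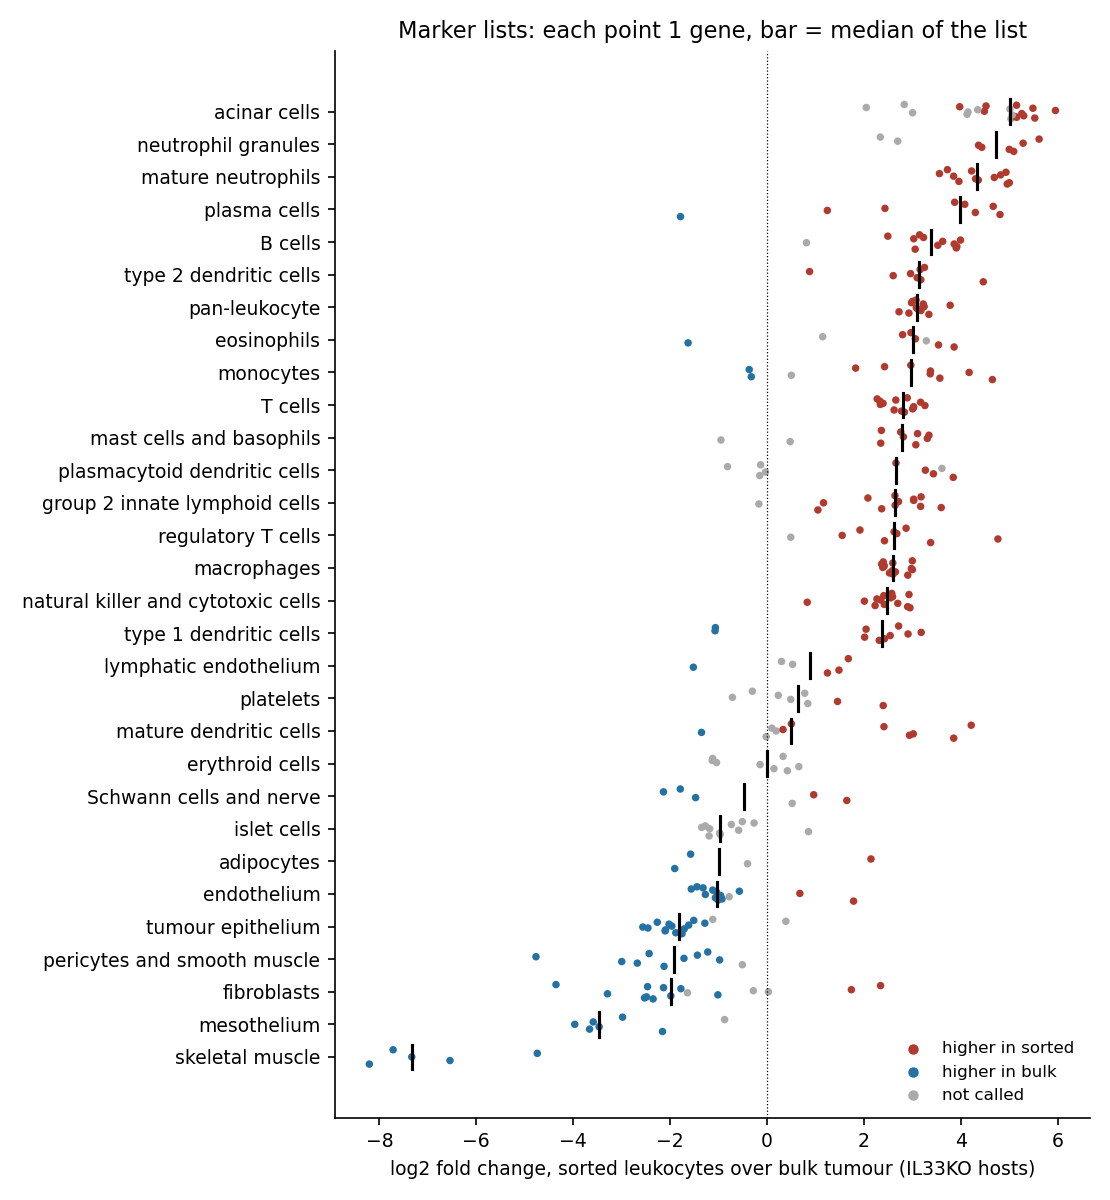
Log2 fold change of sorted leukocytes over bulk tumour (x axis) for every tested member of the lists of leukocyte and other cell type markers (rows), with the median of each list as a bar. Points are coloured by the call of the quasi-likelihood test. The 12 pan-leukocyte markers lie around their median of 3.10, skeletal muscle lies lowest at -7.33 and acinar markers highest at 5.02.

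Stretches before the start sites of the genes were searched for letter patterns, and the shares holding a pattern are given as counts, with no test of their differences. The promoters of RefSeq (build GRCm38.p6, 250 bases before to 50 bases after a start site) were matched by symbol for 11582 of the genes tested. The letters GAGGAAGT, a site form bound by the myeloid and B cell factor PU.1 and other factors of the ETS family, were looked for on both strands. They stood in 4.07% of all matched genes tested, in 11.5% of the 1066 matched genes at least 4-fold higher in sorted leukocytes and in 2.83% of the 741 at least 4-fold higher in bulk tumour. The 4 promoters that follow hold the pattern and are printed in lower case, 5′ to 3′ on the gene's strand, with the match in capitals (ACTTCCTC is the same pattern on the opposite strand). Cd53 and Vav1 are the pan-leukocyte markers that held it, and Ctss and C1qc are among the genes at the highest levels in sorted leukocytes that held it.
Vav1, a signalling protein of blood cells, chr17:57278850-57279149, plus strand: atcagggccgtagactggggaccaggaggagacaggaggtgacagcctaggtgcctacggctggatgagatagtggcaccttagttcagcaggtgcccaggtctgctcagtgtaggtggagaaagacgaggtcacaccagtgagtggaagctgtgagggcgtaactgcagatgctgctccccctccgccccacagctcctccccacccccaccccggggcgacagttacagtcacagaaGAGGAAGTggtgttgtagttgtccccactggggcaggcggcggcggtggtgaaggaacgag
Cd53, a leukocyte tetraspanin, chr3:106790100-106790399, minus strand: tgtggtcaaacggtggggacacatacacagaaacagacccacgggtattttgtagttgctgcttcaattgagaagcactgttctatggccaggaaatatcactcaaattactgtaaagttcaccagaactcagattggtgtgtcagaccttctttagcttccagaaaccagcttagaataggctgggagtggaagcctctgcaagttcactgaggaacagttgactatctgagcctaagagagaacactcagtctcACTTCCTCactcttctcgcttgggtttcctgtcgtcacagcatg
Ctss, the lysosomal protease cathepsin S, chr3:95526536-95526835, plus strand: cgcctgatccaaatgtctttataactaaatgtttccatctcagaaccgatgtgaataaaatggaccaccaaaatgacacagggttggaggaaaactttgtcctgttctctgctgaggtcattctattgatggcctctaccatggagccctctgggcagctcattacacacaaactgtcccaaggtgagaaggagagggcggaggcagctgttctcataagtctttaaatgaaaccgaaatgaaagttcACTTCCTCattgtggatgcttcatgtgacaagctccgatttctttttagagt
C1qc, a chain of complement C1q, chr4:136892865-136893164, minus strand: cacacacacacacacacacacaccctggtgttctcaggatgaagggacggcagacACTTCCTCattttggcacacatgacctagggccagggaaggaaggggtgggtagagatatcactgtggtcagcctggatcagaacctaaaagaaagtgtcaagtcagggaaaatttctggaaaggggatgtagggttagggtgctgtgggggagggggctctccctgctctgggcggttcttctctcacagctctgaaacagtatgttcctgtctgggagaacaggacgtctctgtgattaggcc

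Vav1 measured 198, 203, 217, 218 and 189 CPM in sorted and 24.1, 24.1, 19.9, 26.1 and 33.7 in bulk libraries (log2 3.00 ± 0.13, adjusted p = 5.7e-08). Cd53 measured 420, 509, 626, 503 and 349 and 69.4, 63, 65.1, 64.6 and 102 CPM (log2 2.72 ± 0.19, adjusted p = 6.12e-07), and bulk replicate 5 stood above the other bulk libraries. Ctss measured 2293, 3889, 4199, 3585 and 3517 and 554, 463, 378, 580 and 811 CPM (log2 2.65 ± 0.22, adjusted p = 2.16e-06). C1qc measured 1122, 1482, 1411, 1529 and 1864 and 257, 221, 224, 253 and 280 CPM (log2 2.58 ± 0.14, adjusted p = 1.33e-07), and none of the 4 overlapped between groups. Spi1, the gene of PU.1 itself, measured 255, 264, 284, 277 and 247 against 39.1, 27.1, 26.3, 30.6 and 32.1 CPM and was 8.54-fold higher in sorted leukocytes (log2 3.10 ± 0.12, adjusted p = 3.21e-08). A match of letters is a description and shows no binding. The AP-1 letters TGACTCA stood in 5.07% of the matched genes tested, 6.57% of those at least 4-fold higher in sorted and 8.77% of those at least 4-fold higher in bulk. Vav1 and Ctss lie outside the rule for naming genes and were chosen after their values were seen.

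Macrophage markers were higher in sorted leukocytes in 14 of 14 cases, with a median log2 fold change of 2.59. Csf1r, the receptor on which macrophages depend, measured 983, 1481, 1536, 1479 and 1423 CPM in sorted and 186, 158, 144, 192 and 183 in bulk libraries (log2 3.00 ± 0.14, adjusted p = 7.87e-08). Apoe, the lipid carrier abundant in tumour macrophages, measured 5508, 6122, 3492, 5540 and 7876 and 1342, 863, 917, 1136 and 1095 CPM (log2 2.42 ± 0.21, adjusted p = 2.34e-06). C1qa and Ms4a7 were 5.76-fold and 5.15-fold higher. Of 11 monocyte markers, 8 were higher in sorted leukocytes and 2 in bulk. Ccr2, which brings monocytes out of the marrow, measured 249, 410, 291, 304 and 235 against 36.3, 18.6, 20.9, 18.9 and 31 CPM (log2 3.57 ± 0.24, adjusted p = 5.27e-07), and Ly6c2, a surface protein of inflammatory monocytes, was 25.1-fold higher. The exceptions were small: Ace was 1.29-fold and Plac8 1.25-fold higher in bulk tumour (adjusted p = 0.0442 and 0.0352), the groups overlapped for both, and leaving out single libraries lifted both above the threshold. Ace was lost without any one of bulk replicates 2, 3 or 5 or sorted replicates 1, 2, 4 or 5 (highest adjusted p = 0.105), and Plac8 without bulk replicate 2 or 4 or sorted replicate 1 or 5 (highest adjusted p = 0.0902).

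Neutrophil transcripts were higher in sorted leukocytes, with sorted replicate 3 the highest for several. All 12 markers of mature neutrophils were higher in sorted leukocytes (median log2 4.33), as were 6 of 8 genes of neutrophil granules (median 4.715). Csf3r, the receptor for the neutrophil growth factor G-CSF, measured 532, 384, 400, 648 and 431 CPM in sorted and 27.9, 39.2, 30.7, 25.1 and 30.9 in bulk libraries (log2 3.96 ± 0.19, adjusted p = 7.23e-08). The groups lay far apart and the sorted libraries close together. S100a8, a subunit of calprotectin stored in neutrophil cytosol, measured 991, 1193, 5481, 427 and 397 against 22.9, 22.8, 24.2, 45.9 and 158 CPM (log2 4.96 ± 1.03, adjusted p = 0.00213), and sorted replicate 3 alone held several times the level of the others. S100a9, its partner, was 32-fold higher. The granule genes, which neutrophils make while still immature, were uneven: Ngp measured 975, 1183, 8688, 79 and 342 and 14.7, 4.67, 14.3, 46.8 and 150 CPM, and the groups overlapped. Ngp was nevertheless called (log2 5.62 ± 1.53, adjusted p = 0.00937), as was Camp (log2 5.29 ± 1.54, adjusted p = 0.0132). Without sorted replicate 3 and bulk replicate 3, 3 of the 8 granule genes were called, and Camp had adjusted p = 0.058. With the replicate number as a block in the edgeR fit, 1 of the 8 was called, and Ngp and Camp did not pass (adjusted p = 0.0723 and 0.0825).

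T cell markers were higher in sorted leukocytes in 14 of 14 cases (median log2 2.81), natural killer and cytotoxic markers in 14 of 14 (2.485) and regulatory T cell markers in 8 of 9 (2.62). Cd4, the coreceptor of helper T cells, measured 127, 95.1, 73.1, 186 and 109 CPM in sorted and 10.9, 18.5, 6.73, 12.2 and 17.4 in bulk libraries (log2 3.17 ± 0.32, adjusted p = 8.53e-06). Cd28, the costimulatory receptor, was 9.57-fold higher, Lck, the kinase of the T cell receptor, 5.06-fold, and Bcl11b, a transcription factor of T cell identity, 4.83-fold. Ctla4, the inhibitory receptor of regulatory T cells, had a larger fold than these, at 50.1, 65.7, 36.5, 91.6 and 75 against 1.09, 1.99, 2.05, 2.11 and 4.51 CPM (log2 4.76 ± 0.40, adjusted p = 2.37e-06). Tnfrsf18, the costimulatory receptor GITR, was 6.16-fold higher. Of the cytotoxic genes, Nkg7 measured 135, 172, 114, 307 and 240 and 27.8, 31.4, 13.1, 35.1 and 53.3 CPM (log2 2.59 ± 0.38, adjusted p = 0.000146) without overlap, while the granzymes Gzmb (log2 2.27 ± 0.60, adjusted p = 0.00741) and Gzma (log2 2.35 ± 0.69, adjusted p = 0.0136) were called although the groups overlapped, with bulk replicate 5 above sorted replicate 1 for both. All 31 T cell receptor V segments and all 7 C segments tested were higher in sorted leukocytes, with median log2 fold changes of 2.79 and 2.55.

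Of 13 markers of group 2 innate lymphoid cells tested, 12 were higher in sorted leukocytes (median log2 2.64). Many of them are shared with T cells and mast cells. Il7r, the receptor for the survival factor IL-7, measured 34.6, 28.9, 41.6, 38.3 and 30.3 against 3.98, 3.88, 2.61, 4.36 and 6.45 CPM (log2 3.03 ± 0.22, adjusted p = 8.34e-07). Il17rb, the IL-25 receptor, was low throughout, at 0.781, 0.762, 0.773, 1.51 and 2.37 CPM in sorted and 0.0221, 0.142, 0.0641, 0.113 and 0.169 in bulk libraries (log2 3.60 ± 0.53, adjusted p = 0.000144). Il1rl1 (chromosome 1, 40429570 to 40465415, plus strand), the receptor for IL-33, measured 6.89, 8.36, 6.7, 18.2 and 17.9 against 1.68, 2.23, 1.63, 2.53 and 3.2 CPM and was 5.16-fold higher (log2 2.37 ± 0.35, adjusted p = 0.000147). Sorted replicates 4 and 5 held the higher levels of Il1rl1. The same pair stood above the other sorted libraries for Cpa3, a mast cell protease, at 15.5, 9.99, 14.6, 71.7 and 68.5 CPM against 1.22, 7.57, 4.15, 3.76 and 4.79 in bulk (log2 3.07 ± 0.70, adjusted p = 0.00328). The part of mast cells in the Il1rl1 level was not tested. Of 10 mast cell and basophil markers, 8 were higher in sorted leukocytes.

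B cell and plasma cell transcripts varied widely between libraries. Of 12 B cell markers, 11 were higher in sorted leukocytes (median log2 3.38), and of 8 plasma cell markers 7 were (median 3.98). Cd79a, a signalling chain of the B cell receptor, measured 311, 320, 166, 44.8 and 49.1 CPM in sorted and 1.64, 3.2, 2.48, 7.23 and 44.4 in bulk libraries (log2 3.92 ± 1.11, adjusted p = 0.0118). Sorted replicates 4 and 5 stood just above bulk replicate 5. Ms4a1, the CD20 antigen, was 15-fold higher with overlapping groups, and Fcer2a, the low-affinity IgE receptor, 15.9-fold. Jchain, which joins IgA and IgM into polymers, measured 1046, 3288, 899, 203 and 306 and 10.2, 36.1, 15.9, 16 and 127 CPM (log2 4.81 ± 1.07, adjusted p = 0.00314), and Mzb1, a chaperone of antibody secretion, was 19.7-fold higher. Immunoglobulin V segments took 0.453, 1.55, 0.209, 0.0637 and 0.13% of the counts in the sorted libraries and 0.0039 to 0.0286% in bulk. Of 149 V segments tested, 146 were higher in sorted leukocytes, with a median of 48.8-fold. The C segments took 7.75% of the counts of sorted replicate 2 and 0.313% of sorted replicate 4. Sdc1, the plasma cell marker CD138, which epithelium also carries, went the other way, at 206, 257, 282, 228 and 279 CPM in sorted and 900, 864, 963, 810 and 779 in bulk libraries (log2 -1.79 ± 0.11, adjusted p = 3.06e-07).

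All 8 markers of type 2 dendritic cells were higher in sorted leukocytes (median log2 3.13), and 8 of 10 of type 1 (2.37). Cd209a, a lectin of monocyte-derived and type 2 dendritic cells, measured 9.89, 20.4, 21.3, 23.1 and 13.8 against 0.719, 0.625, 1.04, 0.587 and 1.04 CPM (log2 4.46 ± 0.29, adjusted p = 4.63e-07), and Mgl2, another lectin of these cells, was 8.55-fold higher. Irf8, the transcription factor that type 1 dendritic cells need, was 5.82-fold higher. Siglech, a marker of plasmacytoid dendritic cells, was 14.3-fold higher, while 4 of the 9 plasmacytoid markers were called. Tlr3 and Cadm1, listed with type 1 dendritic cells, were 2.1-fold and 2.09-fold higher in bulk tumour, and Cacnb3, listed with mature dendritic cells, 2.55-fold. Siglecf, the eosinophil lectin, was 14.5-fold higher in sorted leukocytes, whereas Il5ra, the IL-5 receptor of the same list, measured 11.9, 16.2, 19.3, 9.85 and 9.53 CPM in sorted and 57.9, 25.7, 40.5, 38.1 and 44.4 in bulk libraries (log2 -1.63 ± 0.25, adjusted p = 0.000176). These 4 genes did not overlap between groups and went against most of their lists.

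All 9 genes of MHC class II presentation were higher in sorted leukocytes (median log2 2.145). Cd74, the invariant chain that escorts class II molecules, measured 13870, 18490, 14230, 17160 and 19130 CPM in sorted and 4236, 4383, 1932, 4561 and 4217 in bulk libraries (log2 2.10 ± 0.22, adjusted p = 1.01e-05). Per kilobase of exon, Cd74 reached 9873 CPM in sorted leukocytes and 2302 in bulk tumour on average, the highest level in sorted leukocytes among named genes outside the mitochondrial genome. H2-Eb1 was 4.42-fold higher. The Fc receptors were higher in 7 of 7 cases (median 2.875), with Fcer1g, the signalling chain of some of them, 8.13-fold higher. Toll-like receptors were higher in 11 of 12, with Tlr2 9.14-fold and Tlr13 8.9-fold, and Tlr3 was again the exception. Leukocyte transcription factors were higher in 16 of 17 (median 2.77). Among them Irf4, a factor of plasma cells and type 2 dendritic cells, had the largest fold, at 69, 168, 48, 42.6 and 32.2 against 3.94, 3.75, 1.94, 4.32 and 7.31 CPM (log2 4.08 ± 0.53, adjusted p = 7.68e-05). Sorted replicate 2, with the most immunoglobulin, also held the most Irf4.

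Immediate early genes, which cells switch on soon after a stimulus, were mostly higher in sorted leukocytes. Of 20 such genes, 18 were higher in sorted leukocytes and 1 in bulk, with a median log2 fold change of 3.27. Fosb, a partner in the AP-1 transcription factor (chromosome 7, 19302696 to 19310051, minus strand), measured 545, 823, 602, 761 and 762 CPM in sorted and 5.79, 3.98, 4.42, 6.22 and 4.42 in bulk libraries. The groups were 141-fold apart (log2 7.13 ± 0.20, adjusted p = 1.08e-08), with little spread inside either. Fos, another AP-1 partner, measured 2078, 2425, 2057, 2601 and 2030 and 36.4, 34.5, 32.1, 43.3 and 24.1 CPM (log2 6.04 ± 0.18, adjusted p = 1.08e-08). Zfp36, which marks inflammatory messages for decay, measured 3518, 3239, 2236, 4535 and 3825 and 52, 50.4, 43.8, 56.9 and 57.6 CPM (log2 6.06 ± 0.20, adjusted p = 2.29e-08). Dusp1, a phosphatase that switches off MAP kinases, measured 1561, 1264, 1130, 1549 and 1465 and 26.3, 27.2, 24.6, 33.9 and 27.2 CPM (log2 5.65 ± 0.15, adjusted p = 8.17e-09). Btg2, an antiproliferative gene, was 32.9-fold higher and Junb 7.78-fold. Ctgf, a secreted target of YAP in epithelium and fibroblasts, went the other way, 3.95-fold higher in bulk tumour. The highest fold among the pan-leukocyte markers was 3.78 on the log2 scale. Called genes above it numbered 333 (1.93% of those tested), of which 146 were immunoglobulin segments, 16 neutrophil genes, 11 acinar genes and 8 immediate early genes.

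Of 10 heat shock genes, 6 were higher in sorted leukocytes and 2 in bulk (median log2 0.472), or 3 and 4 with library size scaling (0.010). Hspa1a, a stress-inducible chaperone, measured 372, 295, 350, 244 and 106 CPM in sorted and 7.43, 4.15, 5.14, 4.32 and 3.29 in bulk libraries (log2 5.81 ± 0.39, adjusted p = 4.83e-07). Its neighbour and near-identical copy Hspa1b was 13.3-fold higher, and reads of this pair are hard to assign. The constitutive chaperone Hspa8 was 1.53-fold higher and Hsp90aa1 1.44-fold, and neither passed with library size scaling. Those higher in bulk were Hspd1, a mitochondrial chaperone (log2 -0.74 ± 0.09, adjusted p = 3.71e-05), and Hspb1, a small heat shock protein (log2 -0.49 ± 0.16, adjusted p = 0.0214). Hspb1 was not called without bulk replicate 1 or 2 or sorted replicate 2 (highest adjusted p = 0.0556) or in the fit of all 20 libraries (0.134). The labels do not say which steps of dispersal and selection the bulk libraries went through, so handling and cell type cannot be told apart for these genes. The cyclic AMP response element TGACGTCA, a motif chosen after the data were seen and read the same on both strands, stood in 2 of the 15 immediate early genes with a matched promoter and in 3.36% of all matched genes tested. It stood in 1.5% of the matched genes at least 4-fold higher in sorted leukocytes and 1.75% of those at least 4-fold higher in bulk, both below the share of all genes. GAGGAAGT and TGACTCA stood in none of the 15. Both promoters with the element are printed with it in capitals, and Dusp1 was chosen for this after its values were seen.
Dusp1, chr17:26508423-26508722, minus strand: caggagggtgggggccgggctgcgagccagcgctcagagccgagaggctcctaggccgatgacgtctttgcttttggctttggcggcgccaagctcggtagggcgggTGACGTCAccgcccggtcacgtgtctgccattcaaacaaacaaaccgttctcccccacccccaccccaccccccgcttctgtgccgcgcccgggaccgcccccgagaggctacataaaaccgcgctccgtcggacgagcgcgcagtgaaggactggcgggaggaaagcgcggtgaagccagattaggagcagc
Btg2, chr1:134079106-134079405, minus strand: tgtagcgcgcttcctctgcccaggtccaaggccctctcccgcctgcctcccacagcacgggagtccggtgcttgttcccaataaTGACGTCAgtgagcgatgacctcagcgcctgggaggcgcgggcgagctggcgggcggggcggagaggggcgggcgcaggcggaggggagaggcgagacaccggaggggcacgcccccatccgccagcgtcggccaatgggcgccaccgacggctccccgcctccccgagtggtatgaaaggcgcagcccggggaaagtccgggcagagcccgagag

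**Figure D2:**
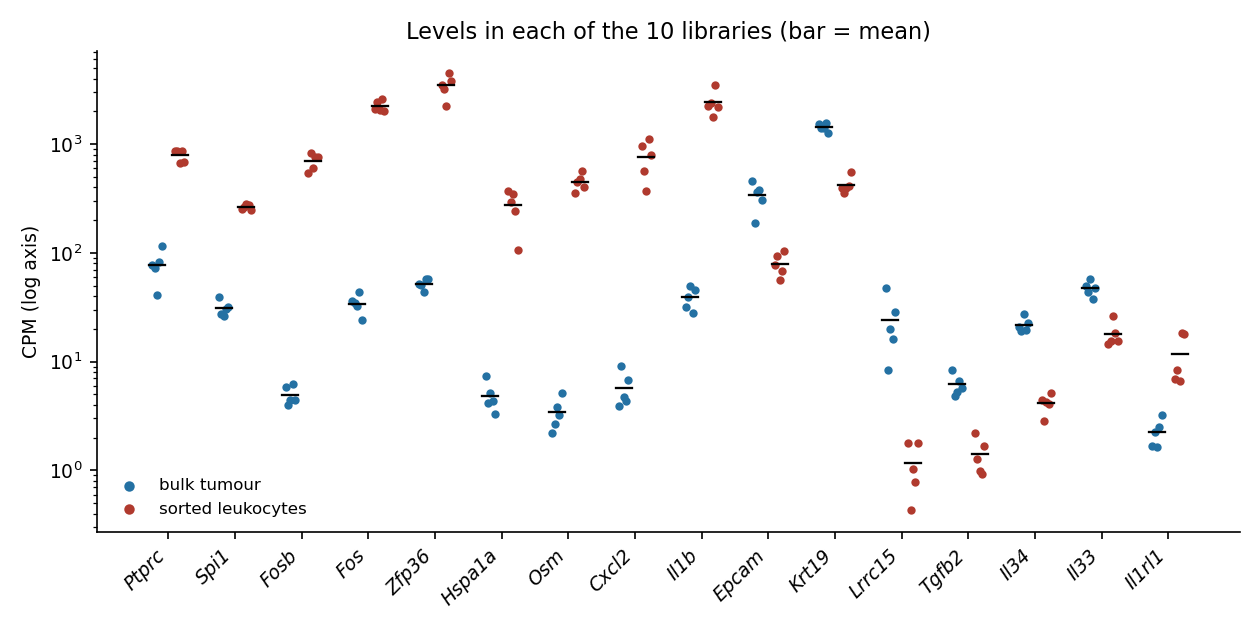
CPM on a log axis in each of the 5 bulk (blue) and 5 sorted (red) libraries for 16 genes, with group means as bars. In each of the 16 genes the points of the groups do not overlap. Fosb, Osm and Cxcl2 lie 141-fold, 131-fold and 132-fold apart, Ptprc 10.1-fold.

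Some inflammatory ligands of myeloid cells had folds above 50. Osm, the gp130 cytokine oncostatin M made by macrophages and neutrophils (chromosome 11, 4236420 to 4241026, plus strand), measured 355, 449, 475, 564 and 402 CPM in sorted and 2.22, 2.66, 3.85, 3.26 and 5.18 in bulk libraries and was 131-fold higher (log2 7.03 ± 0.28, adjusted p = 3.56e-08). Cxcl2, a neutrophil-attracting chemokine (chromosome 5, 90903871 to 90905938, plus strand), measured 958, 562, 371, 1120 and 798 and 3.95, 9.05, 4.69, 4.33 and 6.8 CPM and was 132-fold higher (log2 7.05 ± 0.41, adjusted p = 2.23e-07). Il1b, the precursor of IL-1 beta (chromosome 2, 129364570 to 129371139, minus strand), measured 2213, 2376, 1756, 3524 and 2174 and 31.8, 39, 49.9, 28 and 45.6 CPM (log2 5.95 ± 0.25, adjusted p = 4.39e-08). No library of one group reached the other for any of these ligands. Ccrl2, an atypical receptor of the chemokine receptor family, was 67.3-fold higher, G0s2, a lipase inhibitor, 109-fold and Rgs1, a brake on chemokine receptor signalling, 60.6-fold. Beside the 10.1-fold of Ptprc, these folds were several times larger, and the part of handling was not tested.

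Chemokine genes went in both directions. Of 14 CC chemokines tested, 12 were higher in sorted leukocytes (median log2 2.70) and 1 in bulk. Ccl3, made by activated macrophages, was 18.4-fold higher, and Ccl8, a monocyte attractant, measured 319, 476, 720, 480 and 606 against 85.8, 109, 194, 109 and 219 CPM (log2 1.86 ± 0.30, adjusted p = 0.000235). Ccl20, the ligand of CCR6 made by epithelium, was 3-fold higher in bulk (log2 -1.58 ± 0.34, adjusted p = 0.00191). Of the 12 CXC chemokines, 4 were higher in each compartment, near the shares of all genes tested (31.8% in sorted leukocytes and 32.4% in bulk). Cxcl16 was 2.18-fold higher in sorted leukocytes, while Cxcl5, an epithelial neutrophil attractant, measured 16.5, 20.1, 22.4, 28.8 and 24.2 in sorted and 103, 118, 117, 96.4 and 93.9 CPM in bulk libraries (log2 -2.24 ± 0.14, adjusted p = 4.13e-07). Cxcl9, which is induced by interferon gamma, did not pass, at 388, 662, 494, 754 and 893 and 579, 498, 147, 515 and 428 CPM (log2 0.56 ± 0.34, adjusted p = 0.165). Of 15 chemokine receptors, 14 were higher in sorted leukocytes (median 3.26), Cxcr4 24.7-fold, and the scavenging receptor Ackr3 was 3.13-fold higher in bulk.

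Of 19 cytokines and growth factors that act on myeloid cells, 11 were higher in sorted leukocytes and 6 in bulk. The transforming growth factors split: Tgfb1 measured 294, 310, 287, 310 and 336 CPM in sorted and 124, 88.3, 96.3, 85.5 and 80 in bulk libraries (log2 1.70 ± 0.12, adjusted p = 7.07e-07). Tgfb2 went the other way, at 2.2, 1.28, 0.984, 0.933 and 1.69 and 8.34, 4.86, 5.25, 6.7 and 5.73 CPM (log2 -2.12 ± 0.27, adjusted p = 4.85e-05). Tgfb3 measured 14.4, 11.5, 20.1, 12.4 and 19.9 and 48.6, 50.4, 68.8, 53.9 and 56.1 CPM (log2 -1.83 ± 0.18, adjusted p = 6.07e-06), so 2 of the 3 isoforms were higher in bulk tumour. Csf3, the gene of G-CSF, measured 0.541, 0.479, 0.445, 0.83 and 0.812 and 3.67, 1.39, 7.24, 1.6 and 6.35 CPM (log2 -2.70 ± 0.49, adjusted p = 0.000601), opposite in direction to its receptor Csf3r. Il34, another ligand of CSF1R, measured 4.46, 2.83, 4.29, 4.09 and 5.09 and 20.9, 19, 27.1, 19.5 and 22.8 CPM (log2 -2.40 ± 0.17, adjusted p = 6.06e-07), again opposite to Csf1r. Il33 (chromosome 19, 29925114 to 29960718, plus strand) measured 14.6, 15.3, 26.3, 18.2 and 15.5 CPM in sorted and 49.2, 43.2, 57.7, 37.8 and 47.5 in bulk libraries and was 2.62-fold higher in bulk (log2 -1.39 ± 0.18, adjusted p = 4.43e-05), opposite to Il1rl1. Il1rap, the coreceptor that pairs with ST2, was 7.4-fold higher in sorted leukocytes, and Sigirr, an inhibitory receptor of the same family, 2.28-fold higher in bulk. For each of these ligand and receptor genes the groups did not overlap.

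**Figure D3:**
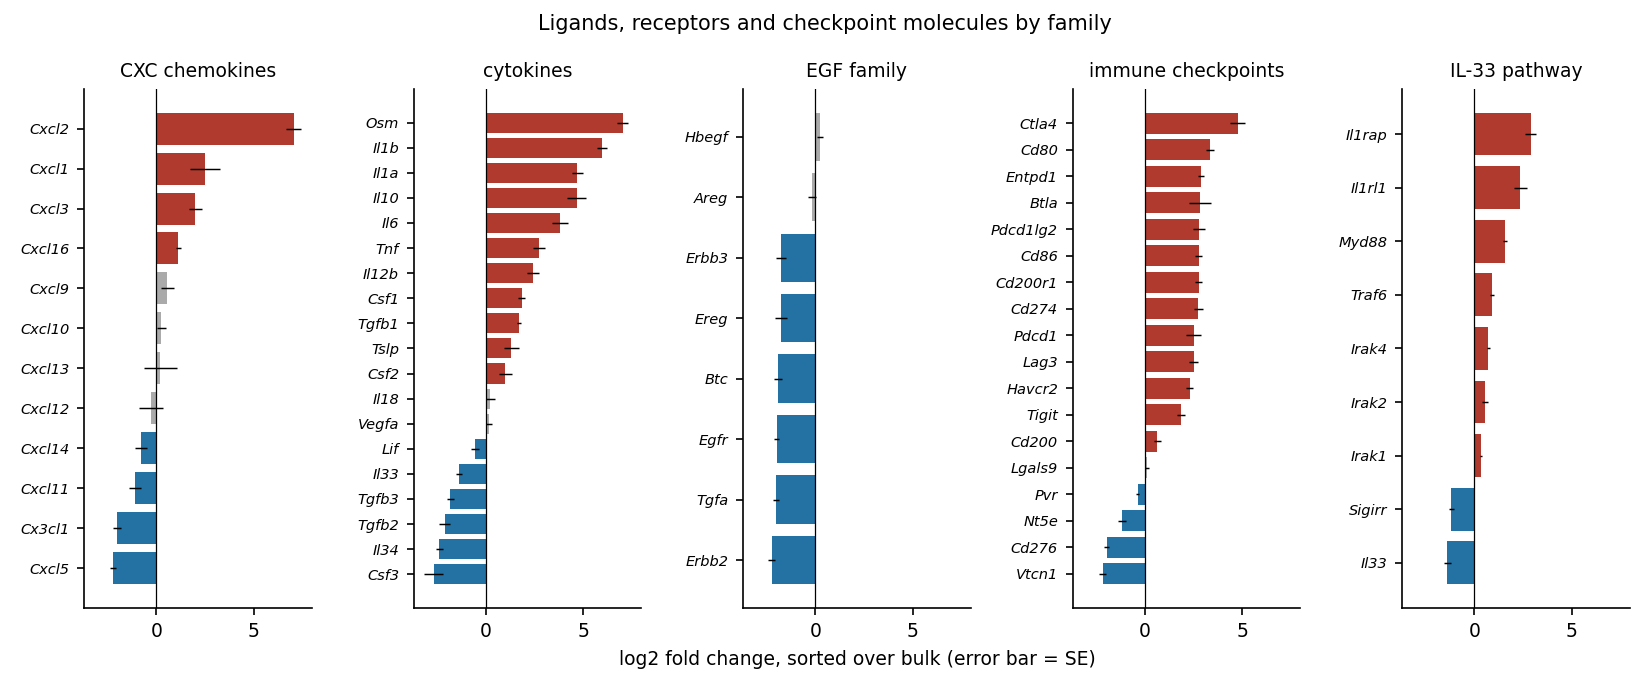
Log2 fold change of sorted over bulk with its standard error for every tested member of 5 families, red where higher in sorted leukocytes, blue where higher in bulk tumour and grey where not called. Osm and Cxcl2 lie near 7, while Csf3, Il34, Tgfb2 and Cxcl5 lie below -2 and 6 of the 8 EGF family genes are blue.

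Checkpoint molecules divided in the same way. Of 18, 13 were higher in sorted leukocytes and 4 in bulk. For this and the families below, the shares of all genes tested were 31.8% higher in sorted leukocytes and 32.4% higher in bulk. Cd274, the gene of PD-L1, measured 215, 258, 242, 401 and 252 CPM in sorted and 41, 45.5, 23.8, 44.1 and 49.6 in bulk libraries (log2 2.75 ± 0.23, adjusted p = 1.86e-06). Among those higher in bulk, Vtcn1 (B7-H4) measured 6.55, 6.07, 8.86, 8.61 and 9.68 and 36, 48, 33.5, 34 and 28.6 CPM (log2 -2.18 ± 0.17, adjusted p = 1.45e-06), Cd276 (B7-H3) was 3.92-fold higher, Nt5e, the ectoenzyme CD73 that makes adenosine, 2.28-fold and Pvr, the poliovirus receptor that TIGIT binds, 1.3-fold. Of 8 EGF family genes, 6 were higher in bulk. The receptor Erbb2 was 4.77-fold and the ligand Tgfa 4.06-fold higher in bulk. Integrins split 8 to 8 of 19: Itgal, the alpha chain of LFA-1, was 10.5-fold higher in sorted leukocytes, and Itgb6, the epithelial beta chain that activates latent TGF beta, 7.74-fold higher in bulk.

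Epithelial transcripts were lower in the sorted libraries than in bulk tumour, but were counted in every one, and what carried them there was not tested. Of 16 epithelial markers, 14 were higher in bulk tumour, with a median log2 fold change of -1.825. Epcam, an adhesion protein of epithelium, measured 76.6, 92.7, 56, 67.8 and 104 CPM in sorted and 458, 189, 363, 379 and 307 in bulk libraries (log2 -2.10 ± 0.24, adjusted p = 2e-05). Krt19, a keratin of ductal cells, measured 395, 356, 392, 408 and 552 and 1519, 1394, 1410, 1572 and 1267 CPM (log2 -1.77 ± 0.12, adjusted p = 6.8e-07). The sorted libraries therefore held Krt19 at levels 3.4-fold below bulk, with the groups apart. Krt8 was 3.37-fold and Krt18 3.69-fold higher in bulk. The summed level of the list was 2390 to 3630 CPM in sorted and 8130 to 11300 in bulk libraries. Msln, a mesothelial gene that pancreatic cancer cells also carry, was 4.46-fold higher in bulk, and 6 of 7 mesothelial markers were. Upk3b, a mesothelial membrane protein, measured 3.06, 2.18, 1.26, 1.18 and 1.2 and 15.9, 32.1, 9.66, 48.6 and 6.38 CPM (log2 -3.66 ± 0.59, adjusted p = 0.000285).

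Most genes of the fibrous stroma were higher in bulk tumour. Of 15 fibroblast markers, 10 were higher in bulk and 2 in sorted leukocytes (median log2 -1.986). Of 20 collagen chains, 18 were higher in bulk (median log2 -2.46), and of 18 other matrix genes 16 were (median -2.25). Col1a1, the main chain of type I collagen, measured 310, 170, 105, 44.8 and 183 CPM in sorted and 1825, 318, 838, 1109 and 688 in bulk libraries (log2 -2.56 ± 0.56, adjusted p = 0.00242). Bulk replicate 2 stood just above sorted replicate 1. Col3a1 was 4.72-fold higher in bulk. Postn, a matrix protein of activated fibroblasts, measured 19.5, 9.16, 12, 4.75 and 16.4 and 252, 54.1, 126, 54 and 121 CPM (log2 -3.29 ± 0.53, adjusted p = 0.000336). Tnc, the matrix protein tenascin C, was 13.9-fold higher, and Lrrc15, a membrane protein of myofibroblastic cancer-associated fibroblasts, measured 1.8, 0.435, 1.03, 0.788 and 1.79 and 47.7, 8.42, 20.1, 16 and 28.4 CPM (log2 -4.36 ± 0.54, adjusted p = 4.33e-05), the largest difference among the 15 fibroblast markers. Dcn was 5.1-fold higher in bulk. Thbs1 was the matrix gene that went the other way, at 618, 915, 612, 832 and 495 against 267, 117, 188, 203 and 280 CPM (log2 1.72 ± 0.25, adjusted p = 0.000107). Thy1, a fibroblast marker that mouse T cells carry as well, was 3.34-fold higher in sorted leukocytes, and so was Pi16, 5.08-fold.

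Matrix proteases and their inhibitors were split, 7 higher in sorted leukocytes and 9 in bulk of 21. Of all genes tested these shares were 31.8% and 32.4%. Mmp9, a gelatinase of neutrophils, measured 451, 445, 1203, 746 and 444 against 36.2, 51.1, 65.1, 32.7 and 43 CPM (log2 3.85 ± 0.34, adjusted p = 3.23e-06), and Mmp12, the macrophage elastase, was 6.13-fold higher. Adam8 was 3.88-fold higher in sorted leukocytes. Timp3, a matrix-bound inhibitor, was 5.1-fold higher in bulk. Mmp14, the membrane-type protease, did not pass, at 232, 324, 328, 317 and 375 and 451, 337, 342, 331 and 278 CPM (log2 -0.14 ± 0.15, adjusted p = 0.422).

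Of 14 endothelial markers, 11 were higher in bulk and 2 in sorted leukocytes (median log2 -1.02), while their summed level was 231 to 338 CPM in sorted and 239 to 351 in bulk libraries. Of 6 markers of lymphatic endothelium, 3 were higher in sorted leukocytes and 1 in bulk (median 0.887), or 1 and 1 with library size scaling (0.435). Without sorted replicate 3 and bulk replicate 3, 6 of the 14 endothelial markers were higher in bulk. Plvap, the diaphragm protein of vessel pores, measured 24.6, 10.2, 7.05, 10.2 and 17.7 and 32.4, 26.6, 38.6, 20.1 and 25.8 CPM (log2 -1.04 ± 0.32, adjusted p = 0.0138), with overlap, and had adjusted p = 0.051 without those libraries. The exceptions were Pecam1, which leukocytes and platelets also carry and which was 3.45-fold higher in sorted leukocytes, and Eng, an accessory TGF beta receptor, 1.6-fold. Eng did not pass with library size scaling. Of 10 pericyte and smooth muscle markers 9 were higher in bulk, with Acta2, the smooth muscle actin, 4.36-fold and Rgs5, a pericyte gene, 1.97-fold. Among mesenchymal transition factors, Zeb2, which macrophages also express, was 4.89-fold higher in sorted leukocytes and Twist1 6.64-fold higher in bulk (log2 -2.73 ± 0.50, adjusted p = 0.000607). Snai1 was 1.8-fold higher in sorted leukocytes with overlap, and adjusted p rose to 0.0531 without sorted replicate 4. Vim, the intermediate filament of mesenchymal cells and leukocytes, did not pass (log2 -0.36 ± 0.18, adjusted p = 0.1) but was called higher in bulk without bulk replicate 5 (adjusted p = 0.0134).

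The lowest fold changes of all named genes came from skeletal muscle in part of the bulk libraries. Acta1, the actin of skeletal muscle, measured 1020, 0.142, 0.288, 0.44 and 284 CPM in bulk and 0.901, 0.892, 2.46, 0.104 and 0.152 in sorted libraries. Bulk replicates 1 and 5 alone were high, and the other bulk libraries lay within the sorted range. The test called Acta1 (log2 -8.21 ± 2.64, adjusted p = 0.021), and 5 of 5 muscle markers tested with it, or 3 of 5 without bulk replicate 1 or without any single sorted library. On the same libraries limma voom called none of the 5, with adjusted p = 0.428 for Acta1 and 0.235 for Myl1, and DESeq2 called 5. Without bulk replicates 1 and 5 the Acta1 log2 fold change was 1.60 (adjusted p = 0.179), and 3 of the 5 were then higher in sorted leukocytes and none in bulk. Myl1, a myosin light chain of fast muscle, measured 162, 0.341, 0.288, 0.406 and 77.5 CPM in bulk libraries and 0.118 to 0.609 in sorted ones, and was not called without that pair (adjusted p = 0.37).

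Acinar transcripts, which encode the digestive enzymes of the normal pancreas, were higher in the sorted than in most bulk libraries. Cpa1, carboxypeptidase A1, measured 292, 922, 6156, 97.2 and 99.4 CPM in sorted and 1.56, 0.597, 212, 0.451 and 17 in bulk libraries. Bulk replicate 3 stood above 2 of the sorted libraries, the spread reached 4 orders of magnitude, and Cpa1 did not pass (log2 5.03 ± 2.12, adjusted p = 0.0611). Without sorted replicate 3 and bulk replicate 3 its log2 fold change was 6.18 (adjusted p = 0.0113). Pnlip, pancreatic lipase, was called (log2 5.95 ± 2.14, adjusted p = 0.034), but not without sorted replicate 3 (adjusted p = 0.0898), without bulk replicates 1, 2, 4 or 5 singly (0.0574, 0.0546, 0.0553 and 0.0745) or without bulk replicates 1 and 5 together (0.128). Ctrb1, chymotrypsinogen, did not pass (log2 4.15 ± 2.04, adjusted p = 0.101). Both Cpa1 and Ctrb1 were called by DESeq2 (adjusted p = 0.00332 and 0.02) and by limma voom (0.00594 and 0.00661). Without bulk replicate 3 alone, Cpa1 and Ctrb1 were both called (adjusted p = 0.0101 and 0.0168). Of 20 acinar markers tested, 11 were called higher in sorted leukocytes. On the same libraries DESeq2 called 18, limma voom 20, library size scaling 7 and the fit without an expression filter 4. With 1 library left out the edgeR count ran from 2 (without sorted replicate 3) and 3 or 4 (without bulk replicate 1, 2, 4 or 5) through 7 (without sorted replicate 1 or 2) to 20 (without bulk replicate 3). It was 19 of 19 without sorted replicate 3 and bulk replicate 3 and 1 of 20 without bulk replicates 1 and 5. Islet genes were highest in bulk replicate 3, at 0.0221, 0.27, 137, 1.97 and 1.35 CPM of Ins1 in bulk and 5.65, 5, 45.9, 1.58 and 3.48 in sorted libraries, and none of 11 was called by edgeR, with 0 at an unadjusted p under 0.05, while DESeq2 gave an adjusted p to 4 of them and called 0, and limma voom called 1, Sst. Without bulk replicate 3, 8 of them were higher in sorted leukocytes, Ins1 among them (log2 3.76, adjusted p = 0.042).

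**Figure D4:**
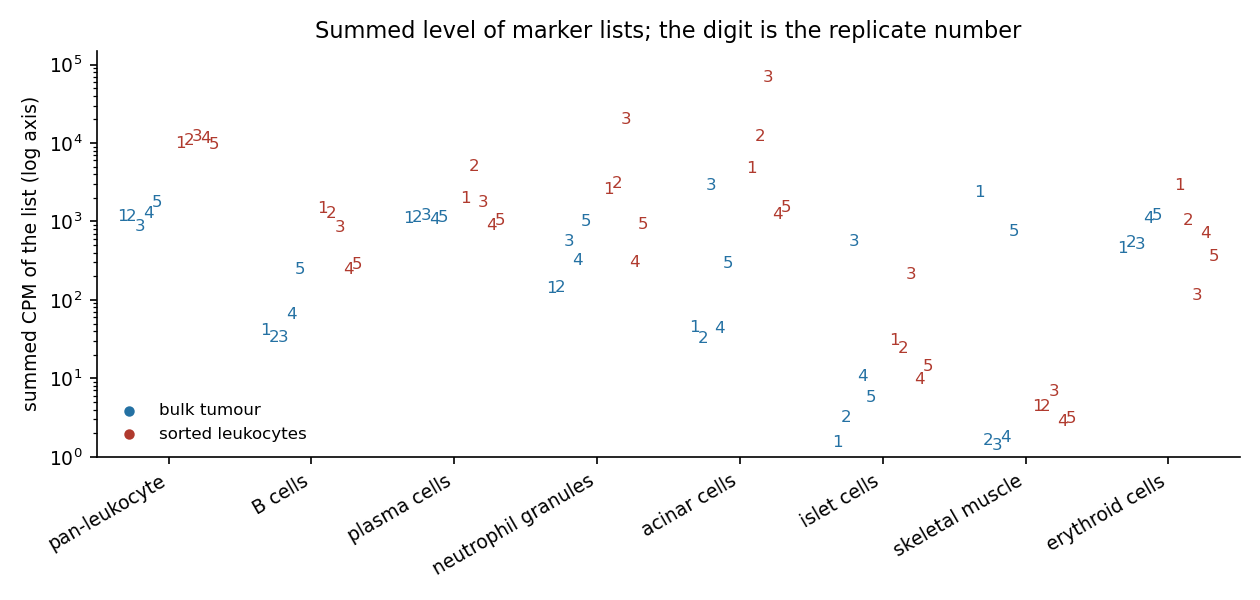
Summed CPM (log axis) of 8 marker lists in each library, the digit being the replicate number, bulk in blue and sorted in red. Pan-leukocyte sums lie close together within each group (868 to 1730 CPM in bulk and 9590 to 12200 in sorted libraries), while muscle stands out in bulk replicates 1 and 5, and acinar and granule genes in sorted replicate 3.

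Genes of general metabolism and growth differed little, and several of their directions depended on the scaling. Beside the counts that follow, 31.8% of all genes tested were higher in sorted leukocytes and 32.4% in bulk. Ribosomal protein genes were higher in sorted leukocytes in 13 of 16 cases with a median log2 of 0.434, which became -0.018 and 1 of 16 with library size scaling. Respiratory chain genes moved from 12 higher and 2 lower of 16 (0.395) to 2 and 4 (-0.057), and MHC class I presentation from 7 and 0 of 12 (0.402) to 1 and 3 (-0.041). B2m, the light chain of class I, measured 3276, 4408, 4319, 4637 and 4066 against 2539, 2869, 2161, 2831 and 3323 CPM (log2 0.59 ± 0.13, adjusted p = 0.00195) and did not pass with library size scaling. Rplp0 did not pass (log2 0.23 ± 0.10, adjusted p = 0.0612), though it did without sorted replicate 4 (adjusted p = 0.0357), and library size scaling turned its sign. Of 18 cell cycle genes, 9 were higher in bulk and 1 in sorted leukocytes (median -0.344), and without bulk replicates 1 and 5 these were 4 and 2. They were 13 and 1 without sorted replicate 3 and bulk replicate 3, and 15 and 0 with library size scaling (median -0.806). Mki67, the proliferation antigen, was 1.22-fold higher in bulk, with overlap and with adjusted p = 0.0752 without bulk replicates 1 and 5, and Top2a, a topoisomerase of dividing cells, did not pass (log2 -0.37 ± 0.19, adjusted p = 0.111) unless sorted replicate 3 was left out (adjusted p = 0.00332). Of 15 genes of cholesterol synthesis 9 were higher in bulk (median -0.635). Of 19 genes of glycolysis and hypoxia, 6 were higher in sorted leukocytes, near the share of all genes tested, and 2 in bulk (median 0.200). With library size scaling these were 3 and 6 (-0.246). Car9, a hypoxia-induced carbonic anhydrase and 1 of the 2 higher in bulk with TMM scaling, measured 25.1, 21.8, 20.4, 28.8 and 33.4 in sorted and 75.9, 99.3, 78.5, 113 and 54.3 CPM in bulk libraries (log2 -1.70 ± 0.20, adjusted p = 2.75e-05).

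The same contrast in WT hosts was fitted to the other 10 libraries. It called 5309 genes higher in sorted leukocytes and 6000 higher in bulk of 17185 tested. Of the genes tested in both, 9431 were called in the same direction in both hosts, which is 86.4% of the calls in IL33KO and 84.4% of those in WT hosts. The test of the difference between hosts, fitted on all 20 libraries, called 0 of 18145 genes (0%) by edgeR, with 2028 at an unadjusted p under 0.05, and DESeq2 called 4. Leaving out bulk replicate 5 of WT hosts gave 27 calls, and leaving out sorted replicate 3 of IL33KO hosts or sorted replicate 5 of WT hosts gave 1 each. The smallest adjusted p was 0.0526, for a predicted gene model. Named genes with the smallest p were Dpysl2, Mid1, Cndp2, Plxdc2 and Mdn1, each with adjusted p = 0.445 in the edgeR fit of all 20 libraries. DESeq2 called Dpysl2 and Mid1 (adjusted p = 0.0356 for both). Without bulk replicate 5 of WT hosts, edgeR called Cndp2 (adjusted p = 0.0175), Mid1 (0.0423) and Mdn1 (0.0484). Plxdc2 was called in neither of these fits. Cndp2, a dipeptidase, had a log2 fold change of 1.23 in IL33KO and 2.40 in WT hosts, at 81.5 to 137 CPM in sorted leukocytes of IL33KO hosts and 308 to 416 in those of WT hosts. Mid1, a ubiquitin ligase on the X chromosome, had 0.21 and -1.53, Plxdc2 1.76 and 2.42, Dpysl2 0.08 and 0.67, and Mdn1 0.15 and -0.76.

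With all libraries in the edgeR fit, no gene of those described was called different between hosts, which does not show that they were alike. In simulated data with the scatter of bulk libraries, this test recovered 9.0% of 2-fold and 86.4% of 4-fold differences. These differences were placed only in genes above a minimum mean level. The log2 fold changes in IL33KO and WT hosts were 3.34 and 3.27 for Ptprc, 7.13 and 7.61 for Fosb, 7.03 and 7.35 for Osm and -1.77 and -1.99 for Krt19. For Il1rl1 they were 2.37 and 1.95, and for Il33 -1.39 and -2.21, with a difference of 0.78 (adjusted p = 0.445). Ace had -0.37 and -1.14 and Tgfa -2.02 and -2.78, with differences of 0.73 and 0.70 (adjusted p = 0.445 for both). The median of the 14 macrophage markers was 2.59 in IL33KO and 3.369 in WT hosts, and 6 of the 14 had an unadjusted p under 0.05 for the difference. Of all genes tested, 2028 of 18145 had such a p. Mesothelial markers had medians of -3.465 and -1.78, with 4 of 7 under 0.05. Pan-leukocyte markers had 3.099 and 3.355, with 0 of 12. The widest gap among the single genes of this paragraph was for Cpa1, at 5.03 and 0.71, with a difference of 4.30 (adjusted p = 0.52). Cpa1 reached 839 CPM in 1 bulk library of WT hosts. Upk3b had -3.66 and -1.41, with a difference of -2.30 (adjusted p = 0.445).

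**Figure D5:**
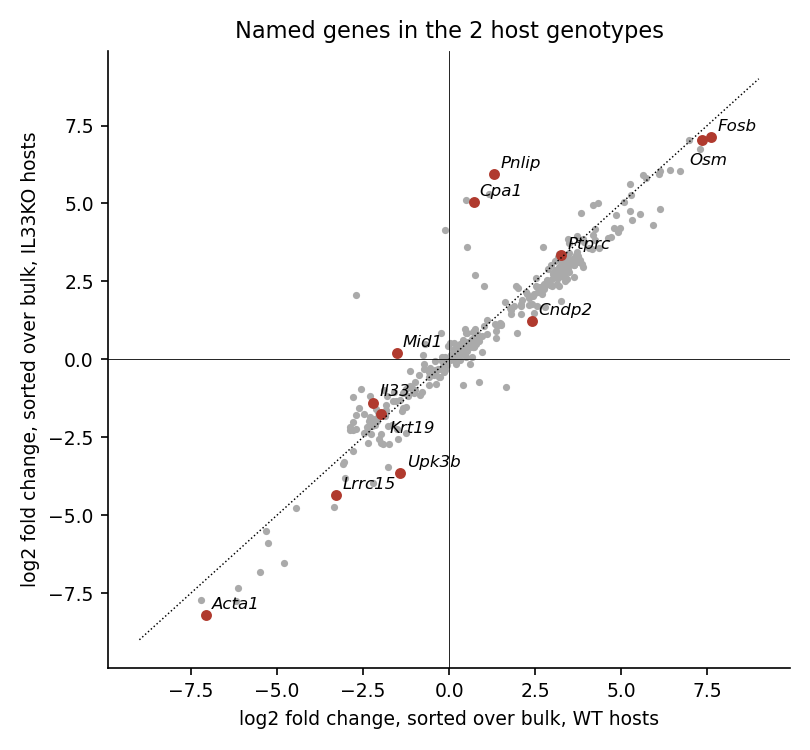
Log2 fold change of sorted over bulk in IL33KO hosts (y axis) against that in WT hosts (x axis), from separate sets of 10 libraries, for the genes chosen by the naming rule (grey) with 12 labelled in red. The dotted line marks equal values. Fosb and Osm lie above 7 on both axes, and Cpa1 and Pnlip lie above the line.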

How the data were processed

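Polyadenylated RNA from 5 libraries of CD45-selected leukocytes and 5 of bulk tumour, all from hosts labelled IL33KO, was analysed, with the 10 libraries of WT hosts for the test between hosts. The authors deposited raw counts per gene, made with HTSeq on the mm10 build, per the submitters' processing notes, which also name Picard and DESeq. Not given in the sources used here were the aligner, all versions and how HTSeq treated strand, so overlapping and antisense genes are uncertain, as are near-identical copies. Another deposited table, scaled by DESeq, was not used. The count table held 46983 genes and 5 summary lines, and those lines, with 26.1 to 40.5% of the reads, were left out of library sizes and tests. GENCODE M21 coordinates matched 46488 genes.

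Tests ran in edgeR 4.0.16 under R 4.3.3, from the deposited counts, with filterByExpr, TMM scaling, robust quasi-likelihood fits (biological coefficient of variation 0.326) and 2-sided tests, adjusted by Benjamini-Hochberg at 0.05. The 10 libraries were fitted alone, and all 20 for the test between hosts. DESeq2 1.42.0 and limma 3.58.1 (voom), other scalings and filters, a replicate block and leaving out libraries were alternatives. No replicates agreed within sampling noise (lowest chi-square per gene 44.8). The fits were tested on simulated data, drawn with the scatter of bulk libraries only. Changes were placed only in genes above a minimum mean level, so recovery at lower levels was not tested. For sorted against bulk, 16.4, 71.6 and 95.5% of changes of 1.5-fold, 2-fold and 4-fold were recovered. For the difference between hosts these shares were 0.0, 9.0 and 86.4%.

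The 56 gene lists and the rule for naming genes were chosen with earlier results of these data known. The rule takes 8 fixed genes, the 10 largest folds per direction whose higher group averaged 20 CPM or more, per list the 4 highest levels, the extreme folds and the members called against their list, and the 5 smallest p between hosts; it gave 326 genes, of which the text names a part. Vav1, Ctss, Dusp1, Spp1 and Clu lie outside it and were chosen after their values were seen. Gene models and receptor segments were counted only.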

Additional observations from a re-analysis of the deposited data

Results flagged for a closer look

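In 5 libraries, one value can stand clear of the other 4. Of 304 groups of 5 values checked among the named genes, 15 held such a value. That is close to the share of about 1 in 20 that chance gives.

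Bulk replicate 3 was the lowest of its group in several immune genes. It held 1930 CPM of Cd74 against 4220 to 4560 in the other bulk libraries, 475 CPM of H2-Eb1 against 1080 to 1210, 147 CPM of Cxcl9 against 428 to 579, 23.8 CPM of Cd274 against 41.0 to 49.6 and 18 CPM of Itgal against 36.7 to 45.9. The same library held the highest Ins1, 137 CPM against 0.0221 to 1.97. Bulk replicate 5 was the highest for Tnfrsf18 (9.03 CPM against 4.99 to 5.92), Fcer1g (125 against 80.7 to 85.6) and Cd53 (102 against 63.0 to 69.4).

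Sorted replicate 1 was the lowest for Csf1r (983 CPM against 1420 to 1540) and Tlr2 (92.4 against 139 to 153), and the highest for Mdn1 (42.2 against 25.8 to 29.1). Sorted replicate 3 was the lowest for Rgs1, at 138 CPM against 432 to 574, and the highest for Pecam1, at 169 against 101 to 108, and for Myl1, at 0.609 against 0.118 to 0.152.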

How the results depend on the processing

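For sorted leukocytes against bulk tumour, the counts of called genes stayed within 1.5 times of those reported under DESeq2, limma voom, RLE and upper quartile factors, both filters, the fit of all 20 libraries and the libraries left out, with library size scaling as the exception. That scaling gave 3217 genes higher in sorted leukocytes and 8848 in bulk tumour, and 2105 at least 4-fold higher in bulk. Upper quartile factors gave 4774 and 6286. With 1 library left out, the calls ran from 5162 to 5490 higher in sorted leukocytes and from 5217 to 5583 higher in bulk, and those of at least 4-fold from 1695 to 1840 and from 1021 to 1342. The difference between hosts called 4 genes by DESeq2, 1 with RLE factors, 1 without sorted replicate 3 and bulk replicate 3 of IL33KO hosts, and 0 to 27 with 1 library left out. Same-numbered sorted and bulk libraries deviated together with correlations from -0.279 to 0.309, and 1 of 5 sorted libraries correlated best with its own number. That was replicate 3, at 0.309, and both libraries of this number held the most acinar transcripts of their groups. Correlations between such unlike samples cannot decide whether the numbers pair the libraries. The replicate block gave 5190 calls higher in sorted leukocytes and 5224 higher in bulk, 1688 and 1079 of them at least 4-fold, and 0 between hosts. By list it called 1 of 8 genes of neutrophil granules (Ngp adjusted p = 0.0723, Camp 0.0825), 20 of 20 acinar markers (Cpa1 0.0105, Ctrb1 0.0192) and none of 5 muscle markers (Acta1 0.516, Myl1 0.16). Of the 152 genes named in the text and tested this way, 124 kept direction and side of the threshold under every alternative run. Signs turned for genes with small or uneven differences, and the cause was not tested. With library size scaling the log2 fold change was -0.22 for Rplp0, -0.37 for Dpysl2, -0.21 for Mid1 and -0.29 for Mdn1, and with upper quartile factors -0.026 for Dpysl2. Ins1 turned to 2.11 without sorted replicate 3 and bulk replicate 3, to 2.40 with limma voom, to 1.63 with the replicate block and ran from -2.84 to 3.76 with 1 library left out (3.76 without bulk replicate 3). Acta1 turned to 1.60 without bulk replicates 1 and 5. The pairs of libraries left out together were chosen after seeing the data.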

Other observations

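Mature dendritic cells, platelets and interferon-stimulated genes gave smaller medians than the pan-leukocyte list (3.099). Other leukocyte lists did so too, T cells (2.805) and macrophages (2.59) among them. Beside the counts that follow, 31.8% of all genes tested were higher in sorted leukocytes. Of 11 markers of mature dendritic cells, 7 were higher in sorted leukocytes and 1 in bulk, with a median log2 fold change of 0.503, or 5 and 2 with a median of 0.063 under library size scaling. Cd83, an activation marker of dendritic cells and B cells, measured 301, 435, 219, 297 and 348 CPM in sorted and 15, 16.3, 14, 17.3 and 23.6 in bulk libraries (log2 4.21 ± 0.21, adjusted p = 1.02e-07). Relb, the NF-kappaB factor of the same list, measured 64.2, 56.9, 48.6, 64.2 and 59.8 and 46.8, 39.5, 38.5, 41.7 and 40.8 CPM (log2 0.50 ± 0.09, adjusted p = 0.000652) and did not pass with library size scaling (adjusted p = 0.629). Of 8 platelet markers 2 were higher in sorted leukocytes, Pf4, platelet factor 4, among them at 54, 82.3, 98.3, 86.9 and 86 against 12.6, 15.7, 16.8, 14.3 and 18 CPM (log2 2.40 ± 0.16, adjusted p = 4.97e-07). Of 15 interferon-stimulated genes, 8 were higher in sorted leukocytes and none in bulk, with a median of 0.562, or 3 and 1 with a median of 0.116 under library size scaling. Irf7, the interferon regulatory factor of that list, measured 113, 112, 140, 179 and 122 and 77, 87.2, 66.4, 115 and 105 CPM (log2 0.56 ± 0.17, adjusted p = 0.0153), with overlap, and neither library size scaling (adjusted p = 0.58) nor leaving out sorted replicate 3 and bulk replicate 3 (0.058) left it past the threshold.

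Spp1 and Clu lie outside the rule for naming genes and were chosen after their values were seen. Spp1, the secreted glycoprotein osteopontin, had the highest mean level per kilobase of exon in bulk tumour among nuclear genes with a proper name, at 3525 CPM. It measured 1610, 1456, 3396, 1931 and 1999 CPM in sorted and 5244, 6410, 7146, 4729 and 5519 in bulk libraries and was 2.79-fold higher in bulk (log2 -1.48 ± 0.22, adjusted p = 0.00015), without overlap. Clu, the extracellular chaperone clusterin, measured 1513, 1159, 1545, 1460 and 1992 and 6754, 6575, 6491, 5400 and 4805 CPM (log2 -1.97 ± 0.15, adjusted p = 1.18e-06), again without overlap.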
